A study of Homo sapiens with 24 samples.

Results

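The G1 cyclins and their kinases are the cell cycle regulators CCND1, CCND2 and CCND3 (D-type cyclins), CCNE1 and CCNE2 (E-type cyclins), and CDK2, CDK4 and CDK6, the cyclin-dependent kinases they bind. They were found by gene symbol. Of these 8 genes, 6 were found among the 18172 genes tested: 2 of 3 D-type cyclins, 1 of 2 E-type cyclins and 3 of 3 kinases. CCND2 and CCNE2 are not analysed here. The deposited annotation places CCND1 on chromosome 11, CCND3 on 6, CCNE1 on 19, CDK2 and CDK4 on 12, and CDK6 on 7. RNA came from HCT116, an established human colorectal carcinoma cell line, and was measured on 24 Illumina expression arrays. Cells had been transfected as siMock controls or as siACL cells, which are depleted of ATP citrate lyase (gene ACLY). Both arms grew in glucose-containing DMEM for 3 days with butyrate at 0, 0.5, 2 or 5 mM, which gives 8 groups of 3 arrays. All groups share the cell line and the glucose medium, and all siACL groups carry the depletion, the untreated one included. The labels call the replicates biological. The sources used here give no siRNA sequences and no culture, slide or scan batch, so the p-values cover the spread between these arrays.

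D-type cyclins bind CDK4 and CDK6, and the resulting kinases phosphorylate the retinoblastoma protein RB early in G1. E-type cyclins then bind CDK2, which phosphorylates RB further, and freed E2F factors switch on the genes of DNA replication. Butyrate, a fatty acid that bacteria of the gut release, inhibits histone deacetylases and can also be metabolised by colon cells, while ATP citrate lyase makes acetyl-CoA in the cytosol from citrate.

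Each value is a normal score, the position of a gene in the ranking of its own array turned into a standard normal quantile. A score of 0 marks the middle of the array, and all scores lie between -3.90 and 3.90. Differences are therefore shifts in rank, have no fold change, and would miss a change shared by all genes. In bulk RNA a smaller share of cells using a gene and less RNA per cell cannot be told apart. Differences were tested with limma across all 18172 genes, and "called" stands for a Benjamini-Hochberg adjusted p under 0.05. "Arrays apart" means that no array of one group reached the range of the other. The number of arrays limits the precision, and arrays of 1 group correlated with each other at 0.928 to 0.955 over all genes. The 6 genes are among the better measured ones: their residual SD within groups was 0.0234 to 0.0396, against class medians of 0.416, 0.189, 0.0471 and 0.0333 over the 4 classes of genes from the lowest to the highest mean score.

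ACLY, the depleted gene, scored lower in siACL than in siMock at every dose. Its mean was 1.18 ± 0.02 against 1.52 ± 0.02 without butyrate and 0.683 ± 0.017 against 1.31 ± 0.03 at 5 mM (SD, n = 3 each), with arrays apart at each of the 4 doses. ACLY also fell with butyrate in both arms, by 0.21 in siMock and by 0.50 in siACL at 5 mM. Of the epithelial markers 5 of 5 were measured, with median percentiles of 60.0 to 98.6. The endothelial markers PECAM1 and VWF had median percentiles of 11.4 and 4.08. Of 4 fibroblast markers, COL1A2 and COL1A1 were measured, with median percentiles of 13.7 and 67.6, and the part of other cells in the results was not tested.

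CCND1, the D-type cyclin that answers to growth factor and Wnt signals, rose with butyrate in both arms, from 2 mM on. In siMock it scored 1.90, 1.93 and 1.92 on the untreated arrays, 1.97, 1.93 and 1.95 at 0.5 mM, 2.11, 2.16 and 2.09 at 2 mM, and 2.28, 2.25 and 2.30 at 5 mM. In siACL the values were 1.95, 2.00 and 2.04 untreated, 2.05, 2.03 and 2.01 at 0.5 mM, 2.17, 2.16 and 2.17 at 2 mM, and 2.25, 2.24 and 2.28 at 5 mM. In both arms the 0.5 mM arrays overlapped the untreated ones, and the 2 mM and 5 mM arrays lay wholly above them. The difference from untreated at 5 mM was 0.36 ± 0.02 (SE) in siMock (adjusted p = 8.6e-10) and 0.26 ± 0.02 in siACL (adjusted p = 7.08e-08). At 2 mM it was 0.20 in siMock (adjusted p = 2.9e-06) and 0.17 in siACL (adjusted p = 3.82e-05). At 0.5 mM it was 0.031 in siMock (95% interval -0.020 to 0.082, adjusted p = 0.43) and 0.035 in siACL (-0.016 to 0.086, adjusted p = 0.52). Over all 24 arrays CCND1 stayed between the 97.1st and the 98.9th percentile, a range of the ranking in which a given difference in score covers few places. Such a rank reflects the brightness of a gene's probes and is not compared between genes.

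CCND3, the other measured D-type cyclin, rose at every dose in both arms, with its highest value at a different dose in each. In siMock its scores were 1.22, 1.19 and 1.20 untreated, 1.30, 1.29 and 1.28 at 0.5 mM, 1.59, 1.55 and 1.54 at 2 mM, and 1.49, 1.52 and 1.52 at 5 mM. In siACL they were 1.10, 1.16 and 1.14 untreated, 1.27, 1.28 and 1.18 at 0.5 mM, 1.41, 1.40 and 1.43 at 2 mM, and 1.59, 1.62 and 1.60 at 5 mM. The siMock values were highest at 2 mM and those of siACL at 5 mM, and each dose lay apart from the untreated arrays. From 2 to 5 mM the score rose by 0.19 ± 0.02 in siACL (adjusted p = 1.01e-05), against a difference of -0.053 ± 0.024 in siMock (adjusted p = 0.12). Against untreated the differences were 0.085, 0.36 and 0.30 at 0.5, 2 and 5 mM in siMock and 0.11, 0.28 and 0.47 in siACL. Both calls at 0.5 mM rest on few arrays. In siMock the adjusted p went from 0.016 to 0.061 without untreated replicate 2 and to 0.057 without 0.5 mM replicate 1. In siACL it went from 0.0082 to 0.052 without untreated replicate 1 and to 0.054 without 0.5 mM replicate 2.

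CDK4, one of the pair of kinases that D-type cyclins bind, fell step by step with butyrate in both arms. The siMock arrays gave 1.80, 1.79 and 1.74 untreated, 1.63, 1.65 and 1.66 at 0.5 mM, 1.56, 1.59 and 1.60 at 2 mM, and 1.37, 1.34 and 1.40 at 5 mM. The siACL arrays gave 1.84, 1.84 and 1.82 untreated, 1.72, 1.72 and 1.74 at 0.5 mM, 1.60, 1.66 and 1.60 at 2 mM, and 1.46, 1.46 and 1.49 at 5 mM. Within each arm no dose overlapped the next. At 5 mM CDK4 fell by 0.40 ± 0.02 in siMock (adjusted p = 4.59e-11) and by 0.37 ± 0.02 in siACL (adjusted p = 3.3e-10), from the 96.2nd to the 91.5th percentile and from the 96.7th to the 92.9th. Of the steps between doses, the one from 0.5 to 2 mM in siMock, a difference of -0.063, narrowly missed the call (limma, adjusted p = 0.05 after rounding), and the others passed. The fall at 0.5 mM kept its call in 12 of 13 other settings in siMock (highest limma adjusted p = 0.059). In siACL that fall kept it in 11 of 13 (0.13), and the step from 0.5 to 2 mM in 12 of 13 (0.12). The steps from 2 to 5 mM kept it in 13 of 13 in both arms.

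Of the 4 members with a promoter entry, CDK4 is also the one with the most E-boxes. RefSeq promoter entries (build GRCh38.p14) exist here for 4 members, CCND3, CDK4, CDK6 and CCNE1, with 7 entries in all, and the 250 bases before each start were searched on both strands. The E-box letters CACGTG read the same on both strands and are a site for MYC and related factors. They occur in 6.34% of all 35116 entries and, among these 4 members, only in CDK4, which holds 3. At least 3 occur in 28 entries, or 0.0797%. The sequence is shown because CDK4 fell with each dose in both arms. It lies on the minus strand at chr12:57752311-57752560, is written 5′ to 3′ and has the E-boxes in capitals. These motifs were chosen with the sequences known, the cutoff of 3 is the count found in CDK4, and a match is a description of letters only.
CDK4: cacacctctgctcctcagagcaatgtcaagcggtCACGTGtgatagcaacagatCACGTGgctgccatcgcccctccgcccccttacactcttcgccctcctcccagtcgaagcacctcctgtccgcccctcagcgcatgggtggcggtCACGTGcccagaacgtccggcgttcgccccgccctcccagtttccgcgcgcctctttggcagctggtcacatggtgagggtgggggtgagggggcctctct

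CDK6, the second kinase that D-type cyclins bind, went the other way from CDK4 and was higher than untreated at every dose in both arms. Its siMock scores were 1.17, 1.09 and 1.04 untreated, 1.35, 1.32 and 1.27 at 0.5 mM, 1.46, 1.45 and 1.41 at 2 mM, and 1.35, 1.39 and 1.32 at 5 mM. In siACL they were 1.03, 1.05 and 1.12 untreated, 1.20, 1.18 and 1.19 at 0.5 mM, 1.53, 1.51 and 1.43 at 2 mM, and 1.45, 1.48 and 1.49 at 5 mM. All treated arrays lay above the untreated arrays of their arm, and in siACL the 2 and 5 mM arrays overlapped each other. The rise from untreated was 0.21, 0.34 and 0.25 at 0.5, 2 and 5 mM in siMock (SE 0.03 each, adjusted p from 2.67e-07 to 0.00017). In siACL it was 0.12 at 0.5 mM (adjusted p = 0.036), 0.43 at 2 mM and 0.41 at 5 mM (adjusted p = 3.74e-08 and 1.71e-08). The siACL call at 0.5 mM was lost without untreated replicate 1 or 2 or any of the 3 arrays at 0.5 mM, with adjusted p from 0.0868 to 0.151. From 2 to 5 mM the siMock arrays were lower and apart, by a difference of -0.089 ± 0.034 that missed the call (adjusted p = 0.057), and passed it without 5 mM replicate 2 (-0.11, adjusted p = 0.041).

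CCNE1, the only E-type cyclin measured, was called lower than untreated at a single dose in each arm, 0.5 mM in siMock and 2 mM in siACL. In siMock it scored 0.663, 0.730 and 0.734 untreated, 0.508, 0.507 and 0.469 at 0.5 mM, 0.649, 0.686 and 0.702 at 2 mM, and 0.721, 0.686 and 0.740 at 5 mM. In siACL the arrays gave 0.686, 0.704 and 0.746 untreated, 0.657, 0.661 and 0.706 at 0.5 mM, 0.635, 0.619 and 0.586 at 2 mM, and 0.674, 0.749 and 0.752 at 5 mM. The siMock arrays at 0.5 mM lay below all 21 other arrays, and the siACL arrays at 2 mM lay below all the remaining ones. At 0.5 mM in siMock CCNE1 fell by 0.21 ± 0.03 (adjusted p = 1.99e-05), from the 76.1st to the 68.9th percentile, and it rose again by 0.18 ± 0.03 from 0.5 to 2 mM (adjusted p = 0.00011). At 5 mM the difference from untreated was 0.0064 in siMock (95% interval -0.052 to 0.065) and 0.013 in siACL (-0.045 to 0.071). The siACL fall of 0.099 ± 0.028 at 2 mM (adjusted p = 0.012) was lost without untreated replicate 3 (adjusted p = 0.067) or 2 mM replicate 3 (adjusted p = 0.057). It was also lost when the 2 groups were fitted without the other arrays (adjusted p = 0.082).

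The CCNE1 promoter is shown because this gene fell at 0.5 mM and rose again at 2 mM in siMock. It holds 7 GC boxes, the letters GGGCGG on either strand, a site for SP1 and related factors. GC boxes occur in 42.6% of all entries, and at least 7 in 1.12%, a cutoff set at the count found in CCNE1. CDK4 holds 3, the 3 CCND3 entries hold 5, 2 and 0, and the CDK6 entries hold 3 and 0. The E2F letters TTTNNCGC, which can share bases with a GC box, occur in 5.92% of entries and were not found in these windows of the members. The sequence lies on the plus strand at chr19:29811741-29811990, with the GC boxes in capitals.
CCNE1: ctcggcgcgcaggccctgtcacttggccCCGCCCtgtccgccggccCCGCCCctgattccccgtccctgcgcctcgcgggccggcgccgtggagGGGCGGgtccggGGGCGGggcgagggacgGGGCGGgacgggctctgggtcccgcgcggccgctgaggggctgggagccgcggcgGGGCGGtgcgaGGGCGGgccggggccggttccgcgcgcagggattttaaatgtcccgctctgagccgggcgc

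CDK2, the kinase partner of cyclin E, was lower than untreated at every dose in both arms, without following the dose. In siMock its scores were 1.27, 1.23 and 1.24 untreated, 1.05, 1.10 and 1.04 at 0.5 mM, 1.14, 1.14 and 1.16 at 2 mM, and 0.947, 0.941 and 0.985 at 5 mM. In siACL they were 1.15, 1.18 and 1.17 untreated, 1.07, 1.05 and 1.03 at 0.5 mM, 1.08, 1.01 and 0.969 at 2 mM, and 1.06, 1.08 and 1.07 at 5 mM. In siMock the 2 mM arrays lay above both the 0.5 and the 5 mM arrays, whereas in siACL the 3 treated groups were close to each other. The fall from untreated was -0.18, -0.097 and -0.29 at 0.5, 2 and 5 mM in siMock (SE 0.02 each, adjusted p = 3.72e-05, 0.0042 and 1.87e-08). In siACL the differences were -0.12, -0.15 and -0.098 (adjusted p = 0.0059, 0.00019 and 0.0033), and fitted on the 2 groups alone the adjusted p was 0.081 at 0.5 mM and 0.054 at 2 mM. The rise from 0.5 to 2 mM in siMock, 0.084 ± 0.025 (adjusted p = 0.021), was lost without 0.5 mM replicate 1 (adjusted p = 0.068), 0.5 mM replicate 3 (0.088) or 2 mM replicate 3 (0.061). From 2 to 5 mM CDK2 fell by 0.19 ± 0.02 in siMock (adjusted p = 1.38e-05). In siACL the difference was 0.050 ± 0.025 (adjusted p = 0.15) and passed without 2 mM replicate 1 (0.081, adjusted p = 0.016).

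**Figure D1:**
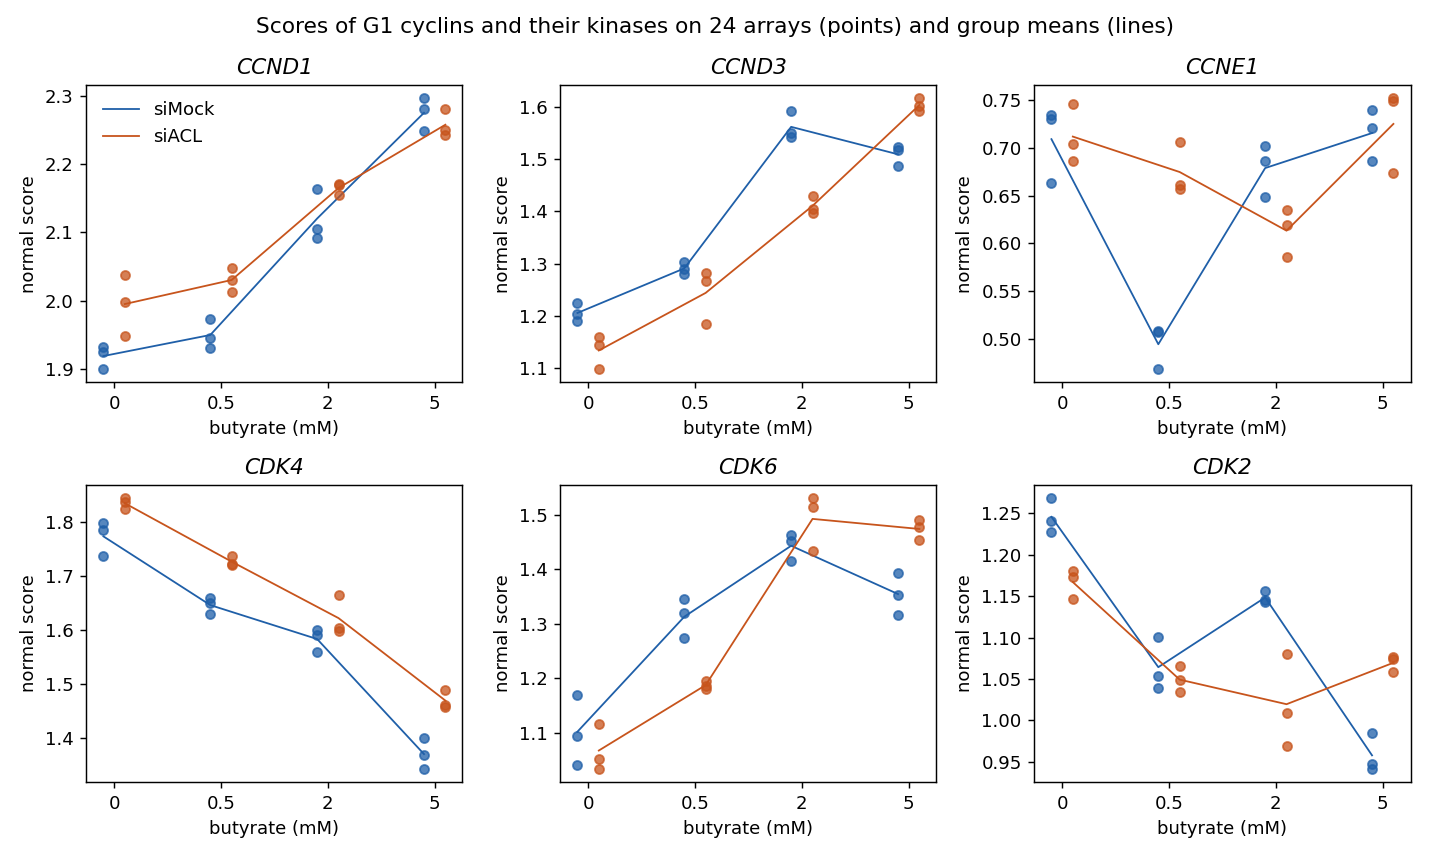
Normal score (vertical axis, own range in each panel) of 6 genes against butyrate dose in mM (evenly spaced), with 1 point per array and lines through the means of 3 arrays, siMock in blue and siACL in orange. CCND1 climbs from a mean of 1.92 to 2.27 in siMock, CDK4 declines from 1.77 to 1.37, and CCNE1 in siMock drops from 0.709 to 0.494 at 0.5 mM.

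Against untreated cells, the genes split into 3 that rose (CCND1, CCND3 and CDK6) and 2 that fell (CDK2 and CDK4) at 2 and at 5 mM in both arms, with CCNE1 beside them. In siMock 5 of the 6 genes were called at 0.5 mM, 2 higher and 3 lower, where 22.1% of all genes tested were called. At 2 mM 5 were called, 3 higher and 2 lower, against 37.9% of all genes, and at 5 mM again 5, 3 higher and 2 lower, against 50.8%. In siACL 4 were called at 0.5 mM, 2 in each direction, against 7.24%. All 6 were called at 2 mM, 3 in each direction, against 26.5%, and 5 at 5 mM, 3 higher and 2 lower, against 45.2%. Highly ranked genes are measured more precisely and are called more often. Among the 9763 genes with a mean score above 0, the shares were 33.6%, 55.3% and 72% in siMock and 11.4%, 41% and 66.2% in siACL. The 5 mM counts are thus near this background. All comparisons of an arm share its 3 untreated arrays, so they are not independent of each other.

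The step from 0.5 to 2 mM in siMock was upward for every gene but CDK4. CCND1 (0.17), CCND3 (0.27), CDK6 (0.13), CCNE1 (0.18) and CDK2 (0.084) were called higher and none lower, 5 of 6 where 21.6% of all genes were called in either direction and 10.5% higher. In siACL the same step called 4 genes, against 13.8%: CCND1 (0.13), CCND3 (0.17) and CDK6 (0.31) higher and CDK4 (-0.10) lower. From 2 to 5 mM 3 genes were called in siMock, against 29.2%, with CCND1 higher (0.15) and CDK2 and CDK4 lower (-0.19 and -0.21). In siACL 4 were called, against 28.5%, with CCND1 (0.092), CCND3 (0.19) and CCNE1 (0.11) higher and CDK4 (-0.15) lower. Fitted on the 2 groups alone, with fewer arrays to estimate the spread, these counts were 3, 1, 3 and 2, and the counts at 0.5 mM were 2 in siMock and 0 in siACL. Among genes with a mean score above 0, 33.2% were called for the step from 0.5 to 2 mM and 45.8% for that from 2 to 5 mM in siMock, and 22.3% and 44.6% in siACL. The fit on 2 groups also called fewer of all genes, 1519 in place of 4022 at 0.5 mM in siMock.

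**Figure D2:**
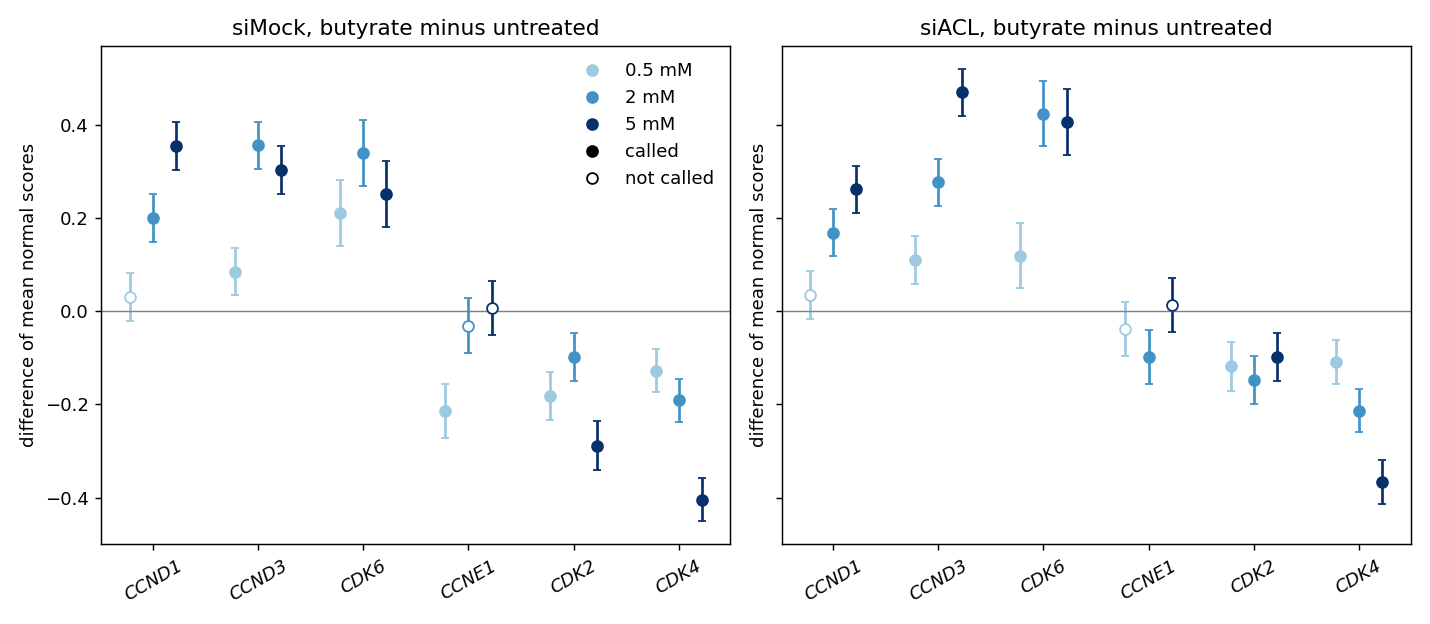
Difference of mean normal scores from the untreated cells of the same arm (vertical axis) for 6 genes at 3 butyrate doses, siMock on the left and siACL on the right, with 95% intervals from limma and filled symbols for calls at adjusted p under 0.05. CCND1, CCND3 and CDK6 lie above 0 and CDK2 and CDK4 below it at every dose, while CCNE1 is below 0 with a call at 0.5 mM in siMock (-0.21) and at 2 mM in siACL (-0.099).

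Depletion of ACLY without butyrate moved none of the 6 genes past the threshold. With limma 0 were called, against 6.31% of all genes, while 4 had an unadjusted p under 0.05. These 4 were CCND1 (0.076, adjusted p = 0.073) and CDK4 (0.062, adjusted p = 0.11), higher in siACL, and CCND3 (-0.072, adjusted p = 0.089) and CDK2 (-0.079, adjusted p = 0.069), lower. In each of them the arrays of the 2 arms lay apart, as they did for 27.3% of all genes. Another variance prior called 2 and the fit on genes with a mean score above 0 called 3. Leaving out siACL untreated replicate 1 called CCND1 (0.099, adjusted p = 0.034).

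With butyrate the arms differed in a way that changed with the dose. At 0.5 mM 4 genes were called, against 17.7% of all genes. CCNE1 was higher in siACL by 0.18 ± 0.03 (adjusted p = 0.00019), with CCND1 (0.080, adjusted p = 0.028) and CDK4 (0.081, adjusted p = 0.017) also higher and CDK6 lower (-0.13, adjusted p = 0.015). The CCNE1 call held without any 1 array. It uses the same siMock arrays at 0.5 mM as the CCNE1 fall and later rise in siMock, so these results are not independent. The CCND1 call was lost without siMock replicate 2 or 3 or siACL replicate 1 or 2 (adjusted p from 0.069 to 0.10). CDK4 was lost without siMock replicate 1 (0.068) or siACL replicate 3 (0.059), and CDK6 without siMock replicate 1 (adjusted p = 0.066).

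At 2 mM CCND3 (-0.15 ± 0.02, adjusted p = 0.00026) and CDK2 (-0.13 ± 0.02, adjusted p = 0.0013) were lower in siACL, and these 2 calls stand against 19.1% of all genes. At 5 mM the same 2 genes were higher in siACL, CCND3 by 0.095 ± 0.024 (adjusted p = 0.014) and CDK2 by 0.11 ± 0.02 (adjusted p = 0.0054). CDK4 (0.099, adjusted p = 0.0055) and CDK6 (0.12, adjusted p = 0.024) were also higher at 5 mM, 4 called higher and none lower, against 13.7% called in either direction and 8.8% higher. Among genes with a mean score above 0, 9.25%, 27.7%, 29.9% and 22.3% were called between the arms at 0, 0.5, 2 and 5 mM. For CCND1 the 5 mM difference was -0.017 (95% interval -0.068 to 0.033) and for CCNE1 0.0096 (-0.049 to 0.068). The CCND3 call at 5 mM was lost without siMock replicate 1 (adjusted p = 0.063) or siACL replicate 2 (0.053). The CDK6 call was lost without siMock replicate 1 or 3 or siACL replicate 2 or 3 (adjusted p from 0.064 to 0.096). Fitted on the 2 groups alone, the counts were 1 at 0.5 mM, with CCNE1 as the gene called, and 0 at 2 and at 5 mM, where adjusted p for CCND3 was 0.057 and 0.11 and for CDK2 0.12 and 0.09.

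**Figure D3:**
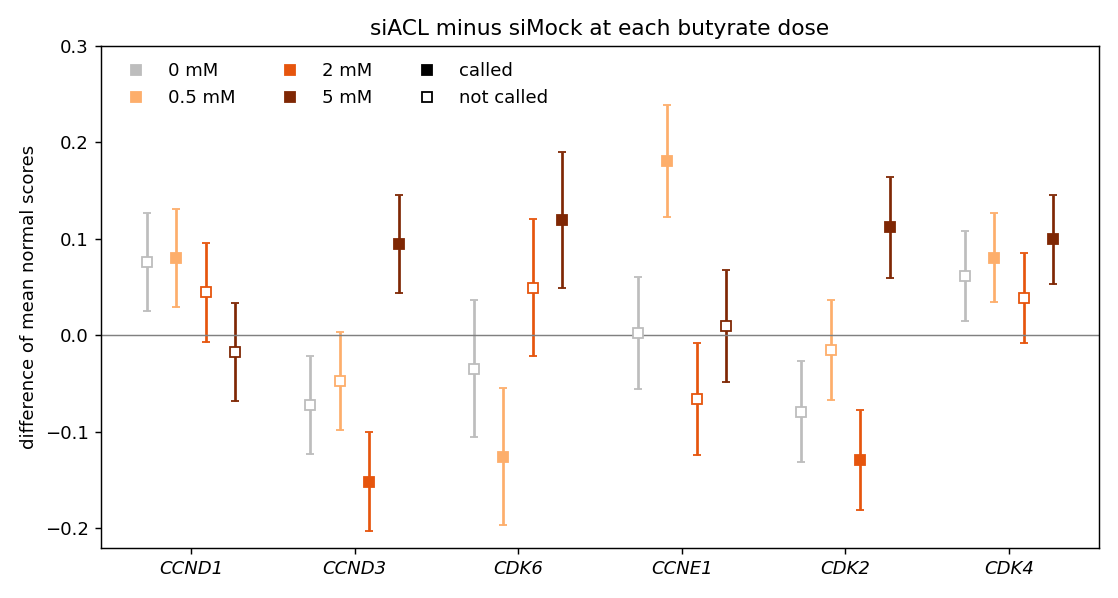
Difference of mean normal scores, siACL minus siMock (vertical axis), for 6 genes at 4 butyrate doses, with 95% intervals from limma before adjustment and filled symbols for calls at adjusted p under 0.05. CCND3 and CDK2 lie below 0 at 2 mM (-0.15 and -0.13) and above it at 5 mM (0.095 and 0.11), and CCNE1 stands out at 0.5 mM (0.18).

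Whether the response to butyrate itself differed between the arms was tested by subtracting the change in siMock from that in siACL. At 5 mM CDK2 (0.191 ± 0.035, adjusted p = 0.002) and CCND3 (0.167 ± 0.034, adjusted p = 0.0046) differed, 2 of 6 against 8.85% of all genes. CDK2 fell less in siACL (-0.098 against -0.29) and CCND3 rose more (0.47 against 0.30). These 2 calls held on the 4 groups alone (adjusted p = 0.01 and 0.021). Without butyrate the scores in siACL were already lower (-0.079 for CDK2 and -0.072 for CCND3, not called), a gap that the tested differences include. CDK6 had a difference of 0.154 ± 0.047 that missed the call (adjusted p = 0.052). It passed without siMock untreated replicate 3, siMock 5 mM replicate 2 or siACL untreated replicate 3 (adjusted p from 0.022 to 0.043), and also with array weights (0.044), the other variance prior (0.019), a replicate block (0.049) and the genes with a mean score above 0 (0.02). It missed the call in the 12 other settings of 19. The CCND1 difference was -0.093 (adjusted p = 0.11), which passed without siACL untreated replicate 1 (-0.12, adjusted p = 0.043), and that of CDK4 was 0.038 (95% interval -0.028 to 0.10). At 0.5 mM CCNE1 was the 1 gene called (0.178 ± 0.039, adjusted p = 0.018), against 3.1%, and this call was lost without siACL 0.5 mM replicate 3 (0.16, adjusted p = 0.052) and on the 4 groups alone (adjusted p = 0.07). At 2 mM limma called 0, against 6.19%. There CCND3 (-0.079, adjusted p = 0.2) was the 1 gene with an unadjusted p under 0.05, and each of the other settings tried called 0 as well. Among genes with a mean score above 0, 4.97%, 9.86% and 14.4% were called at 0.5, 2 and 5 mM.

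Ordered by mean score, the 8 groups lined up by dose for some genes and not for others. CDK4 ran from siMock at 5 mM (1.37 ± 0.03) to untreated siACL (1.84 ± 0.01; SD, n = 3 each), with siMock just below siACL at each dose. Of its 7 pairs of neighbours 3 overlapped: siMock and siACL at 2 mM, siACL at 2 mM with siMock at 0.5 mM, and siACL at 0.5 mM with untreated siMock. CCND1 ran from untreated siMock to siMock at 5 mM, and 5 of its 7 neighbouring pairs overlapped. Its 4 groups at 0 and 0.5 mM all lay below the 2 groups at 2 mM, which lay below the 2 at 5 mM. CCND3 overlapped in 3 pairs, with untreated siACL lowest (1.13 ± 0.03) and siACL at 5 mM highest (1.60 ± 0.01). CDK6 overlapped in 4 pairs, with untreated siACL lowest (1.07 ± 0.04) and siACL at 2 mM highest (1.49 ± 0.05). For CCNE1 only siMock at 0.5 mM (0.494 ± 0.022) and siACL at 2 mM (0.613 ± 0.025) were apart from the group above them, and the 6 others overlapped from each to the next. For CDK2 untreated siMock (1.25 ± 0.02) stood apart as the highest, and the 5 lowest groups, all treated, overlapped from each to the next.

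The genes whose 8 group means followed each member most closely were sought over all genes tested, as a description by Pearson's r. The points share arrays and doses. For CCND1 the closest were C21ORF129, TIMP3 and EHD1 (r from 0.984 to 0.988, and from 0.909 to 0.927 over the 24 single arrays). In untreated siMock C21ORF129 and TIMP3 scored -2.72 and -2.83, far down the ranking. For CCND3 the closest were PBX3, CNIH2 and AP1S2 (0.988 to 0.990, and 0.904 to 0.972 over single arrays). For CDK6 they were DUSP6, TMEM158 and ASMTL (0.986 to 0.988, and 0.945 to 0.963 over single arrays), of which DUSP6 is a phosphatase that acts on ERK kinases. For CDK4 they were FCHO2, ATP5J2 and PHF11 (0.995 to 0.996). CDK2 was followed by NCAPD3, a condensin subunit (0.985), TEP1 and LOC441416 (both 0.963), and over the 24 single arrays r dropped to 0.882, 0.454 and 0.571. CCNE1 was followed by DLX2, LOC732360 and LOC642859 (0.962 to 0.972), with 0.755 to 0.778 over single arrays. Over the 8 group means CCND3 and CDK6 had r = 0.891 and CCND3 and CDK4 -0.882. Once group means were removed, r between any 2 members lay between -0.291 and 0.414.

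The other genes of the pathway were read from 8 lists, described by their counts and medians beside those of all genes. At 5 mM 25.6% of all genes were called higher and 25.2% lower in siMock, and 22.7% and 22.6% in siACL, with medians of -0.013 and -0.016. Among genes with a mean score above 0, larger shares were called in either direction, 72% in siMock and 66.2% in siACL. CDK inhibitors bind and block these kinases, and 5 of the 7 listed were measured. At 5 mM all 5 were called in both arms, 3 higher and 2 lower, against 50.8% and 45.2% of all genes called in either direction. CDKN1A (p21) rose by 0.18 in siMock and 0.11 in siACL, with means of 1.52, 1.69, 1.87 and 1.70 from 0 to 5 mM in siMock, so that it was highest at 2 mM. CDKN1C (p57) rose by 0.22 and 0.34 and CDKN2B (p15) by 0.28 and 0.27. CDKN1B (p27) fell by 0.31 and 0.28. CDKN2A, the gene of p16 and ARF, fell by 1.66 in siMock, from 0.270 ± 0.067 to -1.39 ± 0.27, and by 0.72 in siACL, and this change differed between the arms (0.94, adjusted p = 0.00023). Its siMock mean at 5 mM lies low in the ranking, where scores vary more between the arrays of a group. The median difference of the list was 0.18 in siMock and 0.11 in siACL. Without butyrate CDKN1A was higher in siACL (0.18, adjusted p = 0.00016) and CDKN1C lower (-0.17, adjusted p = 0.027).

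RB proteins, E2F factors and their DP partners stand between the cyclin kinases and the replication genes, and 11 of 13 were measured. In siMock at 5 mM 7 were lower and 1 higher, against 25.2% and 25.6% of all genes, with a median of -0.17. In siACL 4 were lower and 2 higher, against 22.6% and 22.7%, with a median of -0.10. E2F2 fell by 0.45 in siMock and 0.13 in siACL, E2F5 by 0.42 and 0.45, and TFDP1, a DP partner of E2F, by 0.28 and 0.14. RBL2 (p130) rose by 0.30 and 0.12. TFDP2 rose by 0.15 in siACL, against a difference of -0.054 in siMock (adjusted p = 0.31). E2F2 was among those whose 5 mM change differed between the arms (0.32, adjusted p = 2.32e-05): its means from 0 to 5 mM were 1.12, 0.797, 0.893 and 0.668 in siMock and 1.02, 0.921, 0.813 and 0.892 in siACL. From 0.5 to 2 mM its score rose in siMock (0.097, adjusted p = 0.011), as did those of CCNE1 and CDK2, and fell in siACL (-0.11, adjusted p = 0.0077).

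E2F target genes of S phase entry were all measured, 18 of 18. In siMock 13 were lower and 1 higher at 0.5 mM, 11 lower and 2 higher at 2 mM, and 16 lower and none higher at 5 mM. Of all genes 10.1%, 19.3% and 25.2% were called lower there. In siACL the counts were 7 lower and none higher, 12 lower and 1 higher, and 12 lower and 1 higher, where 2.45%, 12.8% and 22.6% of all genes were called lower. Their median at 5 mM was -0.31 in siMock and -0.18 in siACL. TYMS, which makes thymidylate, fell by 0.72 and 0.41, and the helicase subunit MCM5 by 0.58 and 0.33. CDT1, which loads that helicase, fell by 0.55 and 0.20. RRM2, a ribonucleotide reductase subunit, fell by 0.27 in siMock and was the gene called higher in siACL at 5 mM (0.22, adjusted p = 0.00085). At 5 mM 12 of the 18 were higher in siACL than in siMock and none lower, against 8.8% of all genes called higher. The change from untreated differed between the arms for 9, all in that direction, against 5.5%.

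Later cyclins and CDK1, which act from S phase to mitosis, were measured 5 of 5 and all fell at 5 mM in siMock, where 25.2% of all genes were called lower. CCNB2 fell by 1.02, CCNA2 by 0.92, CCNB1 by 0.89, CDK1 (CDC2 on the array) by 0.58 and CCNF by 0.15, with a median of -0.89. In siACL 4 fell, against 22.6% of all genes, CCNA2 by 0.56, CCNB1 by 0.55, CCNB2 by 0.50 and CDK1 by 0.12, with a median of -0.50. The change differed between the arms for 4 of the 5, CCNB2 (0.51), CDK1 (0.45), CCNA2 (0.36) and CCNB1 (0.34), against 5.5% of all genes called in that direction. At 2 mM the list was mixed. In siMock CCNA2 (-0.35), CCNB1 (-0.25) and CCNB2 (-0.15) were lower and CCNF (0.12) was higher, against 19.3% and 18.7% of all genes. In siACL CCNA2 was lower (-0.26) and CDK1 (0.14, adjusted p = 0.0069) and CCNF (0.084, adjusted p = 0.044) were higher, against 12.8% and 13.7%. At 0.5 mM CCNA2 was the 1 gene of the 5 called in each arm, lower in siMock (-0.21, adjusted p = 0.00065) and in siACL (-0.17, adjusted p = 0.01), against 10.1% and 2.45% of all genes called lower.

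CDK activation covers the CDK-activating kinase, the phosphatase CDC25A, the chaperone partner CDC37 and the inhibitory kinase WEE1, with 6 of 6 measured. At 5 mM 3 were higher and 3 lower in both arms, against 50.8% of all genes called in siMock and 45.2% in siACL, with medians of 0.024 and 0.0071. MNAT1, which holds the CDK-activating kinase together, rose by 0.35 in siMock and 0.28 in siACL, and CDC37, which helps CDK4 fold, by 0.25 and 0.21. WEE1 fell by 0.44 and 0.24, and CDK7, the kinase that MNAT1 binds, by 0.15 and 0.23. For the turnover of cyclins D and E 10 of 11 genes were measured, and 4 were higher and 5 lower in siMock at 5 mM, and 3 higher and 4 lower in siACL, with medians of -0.070 and -0.068. These 9 and 7 calls of 10 genes also stand against 50.8% and 45.2%, or 72% and 66.2% among genes with a mean score above 0. CKS1B, a cofactor of the SKP2 ubiquitin ligase, fell by 0.71 in siMock and by 0.38 in siACL. CUL1, the scaffold of that ligase, fell by 0.36 and 0.41, and FBXO4 fell by 0.34 in siMock, against a difference of -0.26 in siACL (adjusted p = 0.071). At 5 mM CKS1B (0.31), SKP2 (0.14), SKP1 (0.12) and FBXO4 (0.45) were higher in siACL than in siMock, against 8.8% of all genes.

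Transcription factors known to act on CCND1 were measured for 11 of 13, and at 5 mM 4 were higher and 3 lower in siMock, and 4 higher and 4 lower in siACL. These 7 and 8 calls of 11 genes stand against 50.8% and 45.2% of all genes. Among genes with a mean score above 0 the shares were 72% and 66.2%. JUN, the AP-1 subunit, rose by 1.08 in siMock and by 0.98 in siACL, with means of 0.576, 1.02, 1.43 and 1.65 from 0 to 5 mM in siMock. STAT3 rose by 0.58 and 0.37 and EGR1 by 0.40 and 0.53. FOSL1, another AP-1 subunit, fell by 0.75 and 0.57. Without butyrate MYC was higher in siACL than in siMock (0.17, limma adjusted p = 0.00052), where 3.7% of all genes were called higher. EGR1 (-0.20, adjusted p = 0.00018) and FOS (-0.12, adjusted p = 0.0056) were lower there, against 2.61%. The EGR1 rise in siACL thus began from a lower score. Cyclins and kinases of transcription, which share the protein families of the members but not their role in G1, were measured 11 of 11. At 5 mM 2 were higher and 3 lower in siMock, and 2 higher and 2 lower in siACL, with medians of -0.047 and -0.072. These 5 and 4 calls of 11 genes stand against 50.8% and 45.2% as well. CCNT2 fell by 0.69 and 0.42, and CCNK rose by 0.21 and 0.14.

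**Figure D4:**
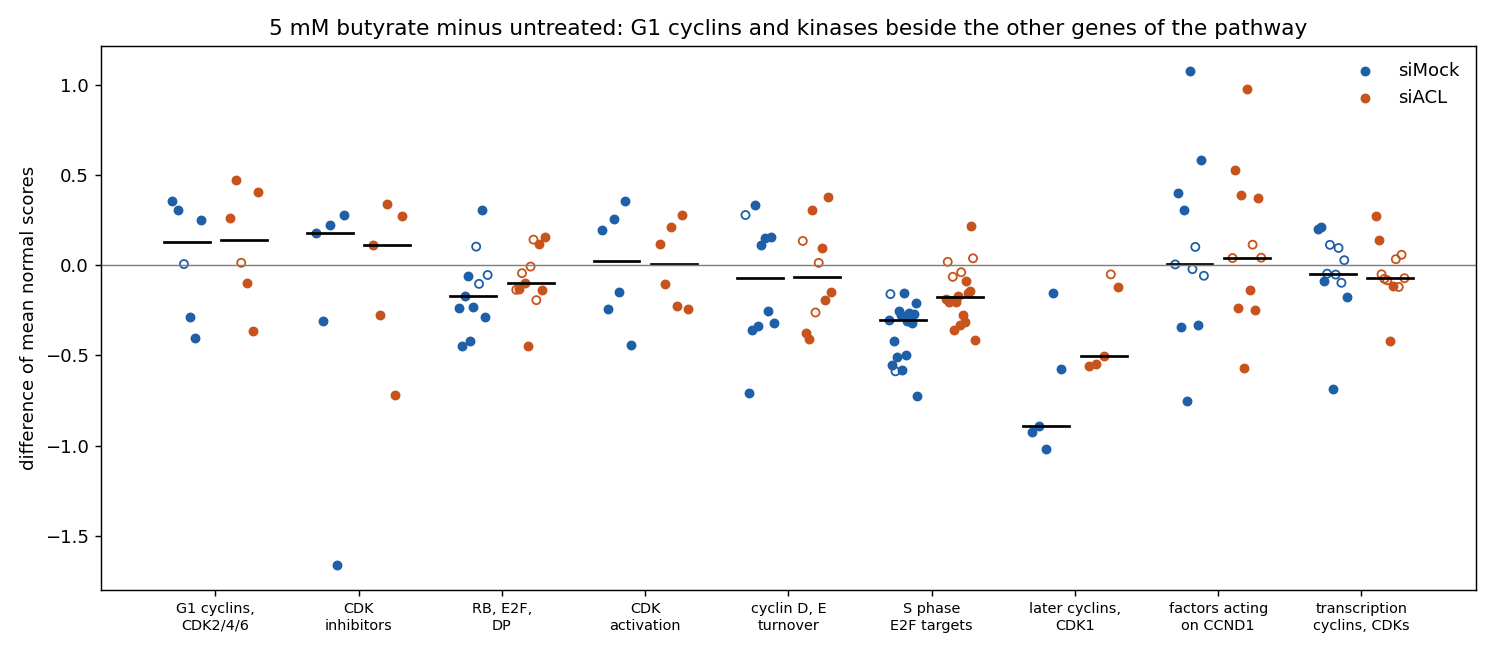
Difference of mean normal scores, 5 mM butyrate minus untreated (vertical axis), for the 6 G1 cyclins and kinases and the measured genes of 8 pathway lists, with siMock in blue and siACL in orange, filled points for calls at adjusted p under 0.05 and black bars for medians. The later cyclins have the lowest medians, -0.89 in siMock and -0.50 in siACL, while the G1 genes spread from -0.40 to 0.36 in siMock. The CDK inhibitor gene CDKN2A lies below all later cyclins, at -1.66 in siMock and -0.72 in siACL.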

How the data were processed

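The scores were used as deposited by the authors, and how they were made is not given in the sources used here. On each array they follow the normal quantiles of the ranks (largest gap 0.000915), so each is a normal score with 1 value per gene. Of 20747 entries, 18172 with a gene symbol were tested, 18 of them without an annotation entry, and 2575 without a symbol were left out. At most 0.248% of genes had identical values on 2 arrays. The 48 scanner columns were not used, since the labels tie them to no sample. Signal over background is therefore unknown. No filter was applied.

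The comparisons used limma 3.58.1 (R 4.3.3). Each group had its own mean, all 24 arrays shared 1 fit, there was no block, and tests were moderated t-statistics (16 residual and 1.05 prior degrees of freedom) and Benjamini-Hochberg adjustment within each of 17 comparisons, these being doses against untreated, steps between doses, siACL against siMock and the interactions. The scripts were tested on simulated data. The members and lists were chosen with earlier results of these data known. Besides the members and ACLY, a rule picked genes from each list and the 3 genes most like each member. From a list it took up to 3 called genes with the largest difference in each 5 mM comparison and in siACL against siMock without butyrate. All called genes were taken if 5 or fewer were called. Values of some genes picked in this way are left out, among them those of CDC6 and E2F7. Other genes named were chosen after their values were seen. Alternatives were a fit of only the groups compared, array weights, a trended and robust variance prior, a replicate block, a threshold of 0.01, percentile ranks, a filter at a mean score of 0 and each array left out.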

Additional observations from a re-analysis of the deposited data

Results flagged for a closer look

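In 3 results the response to butyrate differed between siACL and siMock by a direct test of the difference with limma. CDK2 at 5 mM differed by 0.191, with a fall of -0.098 in siACL against -0.29 in siMock. CCND3 at 5 mM differed by 0.167, with a rise of 0.47 in siACL against 0.30 in siMock. CDK2 and CCND3 were also lower in siACL without butyrate (-0.079 and -0.072, not called), a gap that these differences include. CCNE1 at 0.5 mM differed by 0.178, with -0.037 in siACL against -0.21 in siMock. This difference uses the same siMock arrays at 0.5 mM as the other CCNE1 results at that dose. The CCNE1 call was lost without siACL 0.5 mM replicate 3 (limma, adjusted p = 0.052), on the 4 groups alone (adjusted p = 0.07) and at a threshold of 0.01. Groups of 3 arrays are too small to look for single outlying arrays.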

How the results depend on the processing

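None of the 59 differences called as reported, of 102, changed sign under any setting, while 8 of the 43 not called did so when 1 array was left out. Of the 59 calls, 33 were kept and 26 lost when only the groups compared were fitted. On percentile ranks 8 were lost, at adjusted p under 0.01 it was 10, and with array weights, the other variance prior, the replicate block or only genes of mean score above 0 none was. Of the 43 differences not called, 1 gained a call with array weights, 5 with a trended and robust variance prior, 6 with genes of mean score above 0 and 1 with the block. Leaving out 1 array at a time gave 372 refits of a called difference, of which 344 kept the call and 28 lost it, and 348 of one not called, of which 7 gained one. With only the groups compared, the members called were 2 (siMock 0.5 mM), 3 (siMock 2 mM against 0.5 mM), 0 (siACL 0.5 mM), 1 (siACL 2 against 0.5 mM), 2 (siACL 5 against 2 mM), 1, 0 and 0 (siACL against siMock at 0.5, 2 and 5 mM) and 0 (interaction at 0.5 mM). For siACL against siMock without butyrate the count was 2 with the other variance prior and 3 with genes of mean score above 0. At 0.5 mM it was 1 and at 5 mM 2 with adjusted p under 0.01, and 2 at both doses on percentile ranks; the interaction at 0.5 mM went to 0 with adjusted p under 0.01.

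Leaving out 1 array gave 4 to 5 members called for siMock at 0.5 mM, 5 at 2 and 5 mM, 4 to 5 from 0.5 to 2 mM and 3 to 4 from 2 to 5 mM. For siACL it gave 2 to 4, 5 to 6 and 5 at the 3 doses, 4 and 4 to 5 for the steps. For siACL against siMock it gave 0 to 1, 2 to 3, 2 and 2 to 4 at 0, 0.5, 2 and 5 mM, and for the interaction 0 to 1, 0 and 2 to 3. The count for siACL against siMock at 0.5 mM fell from 4 to 2 or 3 without any 1 of the 6 arrays. Over all genes, arrays that share a replicate number did not deviate together (r from -0.026 to 0.022). Genes low in the ranking vary most and weigh most in this r. It therefore cannot decide whether the numbers pair the arrays for highly ranked genes such as the members. With the replicate number as a block, every count stayed within 1.5 times and 1 call was added, CDK6 in the interaction at 5 mM (adjusted p = 0.049). The groups of 3 arrays, the unknown signal over background and a scale of ranks limit these values, and the background of genes with a mean score above 0 was added after seeing the data. The cause of the changes between settings was not tested.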
